A study of Mus musculus with 6 samples.

Results

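Described here are 35 mouse genes of glucose breakdown and of the response to low oxygen, taken by name from textbook pathways and all found among the 24015 gene symbols listed. They comprise 18 glycolytic enzymes and lactate dehydrogenases, 4 glucose and lactate transporters, 4 kinases that steer flux (Pdk1, Pdk3, Pfkfb3 and Pfkfb4), 2 hypoxia-inducible factor (HIF) subunits, 4 regulators of HIF stability (Egln1, Egln2, Egln3 and Vhl) and 3 target genes of HIF (Vegfa, Bnip3 and Bnip3l). RNA sequencing had been done on 3 libraries from tamoxifen-treated mice (LSPCT) and 3 from untreated mice (LSPC), each of cells that had been sorted by FACS as leukaemia stem and progenitor cells once MLL-AF9 leukaemia was fully developed in the mice. In both groups the leukaemia was grown from lineage-negative, Kit-positive marrow progenitors of NIKERT2 mice. These mice carry at the Rosa locus a NIK transgene behind a loxP-flanked stop and a CreERT2 recombinase that tamoxifen activates, so tamoxifen removes the stop. The groups ask what added NIK does to the leukaemia cells, but tamoxifen, active Cre and NIK went together and cannot be told apart here. The sources used here give no dose, time, age or gate. They also do not say that a group's libraries are from different mice, so the spread behind each p-value may be technical.

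Glycolysis turns glucose into pyruvate, and lactate dehydrogenase turns pyruvate into lactate, which leaves the cell through monocarboxylate transporters. HIF-1, made of HIF-1α (gene Hif1a) and ARNT, switches on many of these enzymes when oxygen is low. With oxygen present, the prolyl hydroxylases PHD2, PHD1 and PHD3 (genes Egln1, Egln2 and Egln3) mark HIF-1α for destruction through the VHL ubiquitin ligase, and Egln1 and Egln3 are themselves HIF targets. Haematopoietic stem cells live in marrow that is poor in oxygen and are known for reliance on glycolysis. NIK (gene Map3k14) is the kinase that starts noncanonical NF-kB signalling.

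Total counts were 19999071 to 22454753 in the tamoxifen libraries and 20410001 to 26773176 in the untreated libraries. A listed 0 does not exclude a low level, and 3 counts were taken as a rough floor for counting error, not a strict limit. At these depths 3 counts equal 0.111 to 0.150 CPM (counts scaled to a common library size). Map3k14, the gene that was switched on, stood at 129.9, 190.6 and 159.5 CPM in the tamoxifen libraries and at 26.5, 24.2 and 28.8 CPM in the untreated libraries, and counts do not tell transgene from endogenous transcripts. All 13 markers of leukaemic progenitors were expressed (Kit at 194, 126 and 139 CPM in tamoxifen and at 131, 137 and 117 CPM in untreated libraries), and 3 of them fell. These were the receptor genes Flt3 (39.2 ± 6.60 CPM in tamoxifen and 89.8 ± 12.8 CPM in untreated libraries), Cd93 (163 ± 23.1 CPM in tamoxifen and 378 ± 73.4 CPM in untreated libraries) and Fcgr3 (157 ± 8.11 CPM in tamoxifen and 221 ± 7.97 CPM in untreated libraries; SD, n = 3 each), with log2 changes of -1.20, -1.21 and -0.49. The B cell gene Pax5 and the haemoglobin genes Hbb-b1 and Hba-a1 were listed at 0 throughout, but other genes of their lists were counted. The 7 B cell markers, most of the sum being Cd79b, summed to 27.5 to 51.5 CPM in tamoxifen and 41.4 to 46.0 CPM in untreated libraries. The 8 erythroid markers summed to 2.46 to 4.90 CPM in tamoxifen and 1.36 to 1.84 CPM in untreated libraries. Tamoxifen replicate 1 stood apart, at 48.2 on the second principal component (17.2% of the variance), beside -25.8 and -18.6 for tamoxifen replicates 2 and 3. The 13 macrophage markers, of which 9 rose and none fell, summed to 2143 CPM in it, 742 and 804 CPM in tamoxifen replicates 2 and 3, and 1126 to 1194 CPM in the untreated libraries. Most of the untreated sums was Hpgd, which went against the list. Hpgd was at 466, 69.5 and 74.9 CPM in tamoxifen and 944, 955 and 981 CPM in untreated libraries (log2 -2.24, edgeR adjusted p = 0.0592). The macrophage gene C1qa was at 92.6 CPM in tamoxifen replicate 1, 8.03 and 14.3 CPM in the other tamoxifen libraries and 0.339 to 3.63 CPM in the untreated ones. The 10 neutrophil markers, none of which passed the test, summed to 226 to 673 CPM in tamoxifen libraries and to 318, 44.5 and 2184 CPM in untreated replicates 1 to 3. Of the other marker lists, 2 of 7 tested T cell genes rose, 1 of 6 endothelial and stromal genes rose and 1 fell, and none of 3 B cell, 3 dendritic cell and 2 erythroid genes passed (edgeR). The dendritic cell genes, most of the sum being Itgax, summed higher in every tamoxifen library, at 35.9, 29.9 and 28.7 CPM in tamoxifen and 7.31, 4.87 and 23.3 CPM in untreated libraries. The T cell genes summed to 35.8 to 94.2 CPM in tamoxifen and 23.0 to 27.0 CPM in untreated libraries.

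Glycolysis and hypoxia genes moved in both directions with tamoxifen. Of 34 tested members, Hif1a, Aldoc, Ldhb, Pfkm, Bnip3l and Eno1 rose and Slc2a3, Egln1, Egln3, Hk2 and Slc16a1 fell (edgeR quasi-likelihood test, adjusted p under 0.05 over all 12729 genes tested). These 11 calls were 32.4% of the tested members, beside 17.2% of all genes tested (8.96% rose and 8.24% fell), and the median log2 fold change was 0.11 beside -0.0025 for all genes. The 3 tamoxifen and 3 untreated libraries did not overlap for 20 members (58.8%), 13 higher and 7 lower with tamoxifen, beside 37.7% of all genes (18.1% higher and 19.6% lower). Epas1 was too low to be tested. In bulk samples like these, fewer cells of a type and less RNA per cell cannot be told apart. The calls of 6 members (Hif1a, Aldoc, Ldhb, Pfkm, Egln1 and Hk2) were kept under all 15 alternative settings run, and those of the other 5 were lost in at least 1. Without tamoxifen replicate 1, 9 members rose and 8 fell, but calls over all genes also went up. In that fit 1657 of 12966 genes rose and 1592 fell, beside 1140 and 1049 of 12729 with all libraries.

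**Figure D1:**
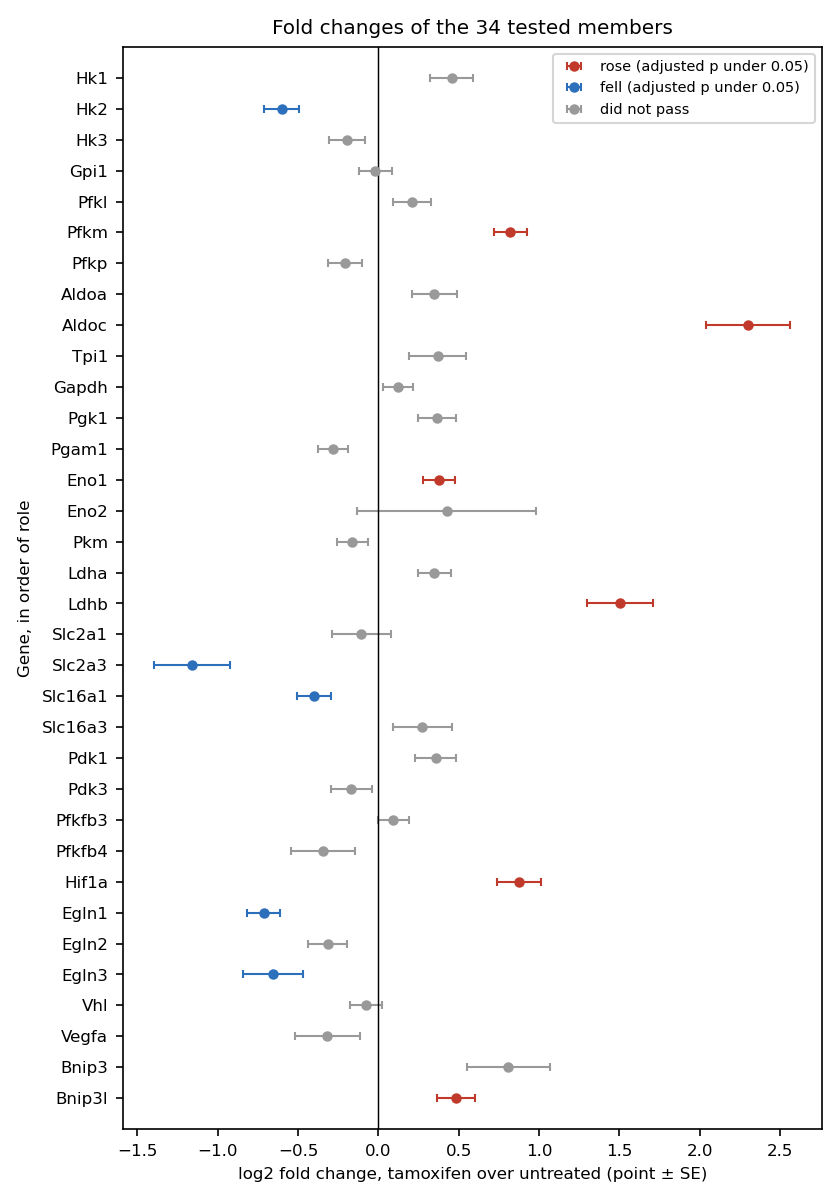
Log2 fold change of each of the 34 tested members, tamoxifen over untreated libraries (points, with bars of 1 standard error, SE), with genes down the page in order of role. The 6 members that rose lie between 0.38 (Eno1) and 2.30 (Aldoc), and the 5 that fell between -1.16 (Slc2a3) and -0.40 (Slc16a1).

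In the HIF branch Hif1a rose, and of the 4 regulators of HIF stability Egln1 and Egln3 fell while Egln2 and Vhl did not pass. Hif1a stood at 208, 156 and 182 CPM in the tamoxifen libraries and at 89.8, 113 and 94.5 CPM in the untreated libraries. Every tamoxifen library was above every untreated one, and the rise was 0.88 in log2 units (SE 0.13, edgeR adjusted p = 0.00391, 0.0282 at most over the alternatives). In GENCODE, 6.06% of the merged exon bases of Hif1a are shared with an opposite-strand gene, Gm15283, and 2.72% with a same-strand gene, Gm49321. Epas1, which encodes another oxygen-regulated subunit, HIF-2α, had 32, 10 and 8 counts in the tamoxifen libraries and 7, 6 and 8 counts in the untreated libraries. Only tamoxifen replicate 1, the library highest in macrophage markers, stood out, and their part in this was not tested.

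Egln1, whose product PHD2 is the main HIF hydroxylase of most cells, was at 47.1, 38.5 and 38.5 CPM in the tamoxifen libraries and at 68.6, 68.7 and 66.3 CPM in the untreated libraries. The untreated libraries lay within a few CPM of each other and the groups were far apart, with a fall by 0.71 in log2 units (SE 0.10, edgeR adjusted p = 0.0027). Egln3, which encodes PHD3, was at 35.7, 30.7 and 29.1 CPM in the tamoxifen libraries and at 50.01, 63.4 and 37.1 CPM in the untreated libraries. The highest tamoxifen library and the lowest untreated library almost met. Egln3 fell by 0.66 in log2 units (SE 0.19, edgeR adjusted p = 0.0464), a call that was lost without tamoxifen replicate 2 or 3 or untreated replicate 1 or 2 (log2 -0.66 to -0.46, edgeR adjusted p 0.121 to 0.144) and under limma voom, upper quartile factors or the stricter filter (adjusted p 0.053 to 0.064). Egln2, which encodes PHD1, overlapped between groups at 71.0, 67.3 and 55.8 CPM in tamoxifen and 86.3, 71.0 and 84.2 CPM in untreated libraries. Its difference of -0.31 missed the threshold (edgeR adjusted p = 0.117) but passed it without tamoxifen replicate 1 (-0.38, adjusted p = 0.0481). Vhl, the substrate receptor of the ligase, was at 23.4 to 24.3 CPM in tamoxifen and 24.3 to 26.7 CPM in untreated libraries (log2 -0.08, SE 0.10, edgeR adjusted p = 0.647).

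The partners of this branch, from a list of 10 that held ARNT, the ligase subunits, the asparagine hydroxylase gene Hif1an and the coactivators Ep300 and Crebbp, gave no call among 9 tested genes (edgeR, and none at an unadjusted p under 0.05). Arnt was at 49.0, 56.8 and 58.4 CPM in the tamoxifen libraries and at 54.3, 56.5 and 57.3 CPM in the untreated libraries. Its groups overlapped (log2 -0.03, SE 0.09).

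Of Vegfa, Bnip3 and Bnip3l, only Bnip3l passed. Bnip3l, which encodes the mitophagy receptor NIX, was at 137, 156 and 182 CPM in the tamoxifen libraries and at 109.8, 109 and 120.3 CPM in the untreated libraries. The groups did not overlap, and the rise was 0.48 in log2 units (SE 0.12, edgeR adjusted p = 0.0252). That call was lost without tamoxifen replicate 2 or 3 or untreated replicate 1 or 2 (log2 0.38 to 0.49, edgeR adjusted p 0.0571 to 0.107). Its relative Bnip3, which also encodes a mitophagy receptor, was at 51.6, 25.7 and 27.0 CPM in the tamoxifen libraries and at 19.5, 21.9 and 18.0 CPM in the untreated libraries. Tamoxifen replicate 1 was far above all others, and the log2 difference of 0.81 (SE 0.26) did not pass (edgeR adjusted p = 0.0691). Without that library the difference was smaller, at 0.42, and passed (edgeR adjusted p = 0.0408), and Bnip3 also passed with DESeq2 (log2 0.82, adjusted p = 0.00942) and without a filter (adjusted p = 0.0471). As 27.2% of the exon bases of Bnip3 are shared with the opposite-strand gene Gm45507 and the strand setting of the counts is unknown, reads of either may be in these counts. Vegfa, the gene of the angiogenic growth factor VEGF-A, was at 73.8, 64.2 and 53.8 CPM in tamoxifen and at 94.7, 55.6 and 88.6 CPM in untreated libraries. The groups overlapped (log2 -0.32, edgeR adjusted p = 0.33).

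HIF-1 binds short sites with the core ACGTG or GCGTG. Of the HIF branch genes that changed, Hif1a, Egln1 and Egln3 had a promoter window and Bnip3l had none. Aldoc and Hk2 were added, as a glycolytic member that rose and one that fell, both with calls kept under all 15 alternatives. The windows of Hif1a, Egln1, Egln3, Aldoc and Hk2 are printed to show where such letters lie. Each is the RefSeq window of GRCm38.p6 from 250 bases before to 50 bases after a start site, 5′ to 3′ on the gene's strand, with these cores and their reverse complements in capitals. The windows are Hif1a at chr12:73907617-73907916 (+ strand), Egln1 at chr8:124949205-124949504 (- strand), Egln3 at chr12:54203825-54204124 (- strand), Aldoc at chr11:78322823-78323122 (+ strand, the first of 2 Aldoc windows, with 3 matches; the other, at chr11:78323948-78324247, holds 1) and Hk2 at chr6:82774405-82774704 (- strand).
Hif1a: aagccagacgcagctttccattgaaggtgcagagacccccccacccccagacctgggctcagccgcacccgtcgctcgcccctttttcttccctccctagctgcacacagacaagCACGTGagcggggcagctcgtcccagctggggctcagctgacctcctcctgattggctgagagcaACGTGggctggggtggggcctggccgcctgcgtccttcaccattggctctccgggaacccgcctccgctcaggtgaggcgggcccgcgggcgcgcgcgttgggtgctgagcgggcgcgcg
Egln1: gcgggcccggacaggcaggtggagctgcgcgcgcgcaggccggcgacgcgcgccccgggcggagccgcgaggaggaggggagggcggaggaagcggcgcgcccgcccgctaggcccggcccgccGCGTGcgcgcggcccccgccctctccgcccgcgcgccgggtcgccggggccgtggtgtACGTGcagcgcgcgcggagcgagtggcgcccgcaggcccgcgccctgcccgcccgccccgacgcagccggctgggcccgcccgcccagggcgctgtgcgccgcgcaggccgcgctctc
Egln3: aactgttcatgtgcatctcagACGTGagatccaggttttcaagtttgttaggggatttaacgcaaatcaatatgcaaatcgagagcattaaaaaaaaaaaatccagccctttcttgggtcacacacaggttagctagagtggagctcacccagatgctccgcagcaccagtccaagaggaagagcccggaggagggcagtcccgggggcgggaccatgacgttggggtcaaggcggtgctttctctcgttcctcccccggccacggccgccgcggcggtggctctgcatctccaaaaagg
Aldoc: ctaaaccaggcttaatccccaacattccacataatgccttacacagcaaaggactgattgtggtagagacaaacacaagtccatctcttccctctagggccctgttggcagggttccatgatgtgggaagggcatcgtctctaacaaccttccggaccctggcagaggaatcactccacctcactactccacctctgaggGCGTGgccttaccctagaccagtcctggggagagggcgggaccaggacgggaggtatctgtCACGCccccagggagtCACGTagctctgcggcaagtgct
Hk2: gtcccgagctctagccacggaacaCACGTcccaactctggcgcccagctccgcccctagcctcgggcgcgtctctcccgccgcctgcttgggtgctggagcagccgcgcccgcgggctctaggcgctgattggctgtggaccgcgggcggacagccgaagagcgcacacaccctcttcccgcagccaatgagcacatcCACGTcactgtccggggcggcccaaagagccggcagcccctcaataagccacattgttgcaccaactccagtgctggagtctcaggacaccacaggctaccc
Of 35 members 32 had at least 1 window (all but Bnip3l, Slc2a3 and Epas1), and 37 of their 47 windows (78.7%) held a core motif on either strand, beside 43.8% of all 32851 windows. The windows are not independent, as some of Eno1, of Aldoa and of Pfkm overlap and share matches. The members were also picked partly as HIF targets. A CACGTG palindrome, as in the Hif1a window, holds 2 overlapping matches, 1 on each strand. All 5 members that rose and had a window, all 4 that fell and had one, and 19 of 23 members with a window and no call held the motif in at least 1 window, so its presence did not separate those that rose from those that fell. The share of all genes with the motif in at least 1 window was not computed, so these gene counts have no background beside them. The NF-kB (kappa B) consensus, searched on both strands, matched 1 of the 47 member windows, in Vegfa, beside 4.51% of all windows. These matches are letters in a window and were not tested for binding.

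**Figure D2:**
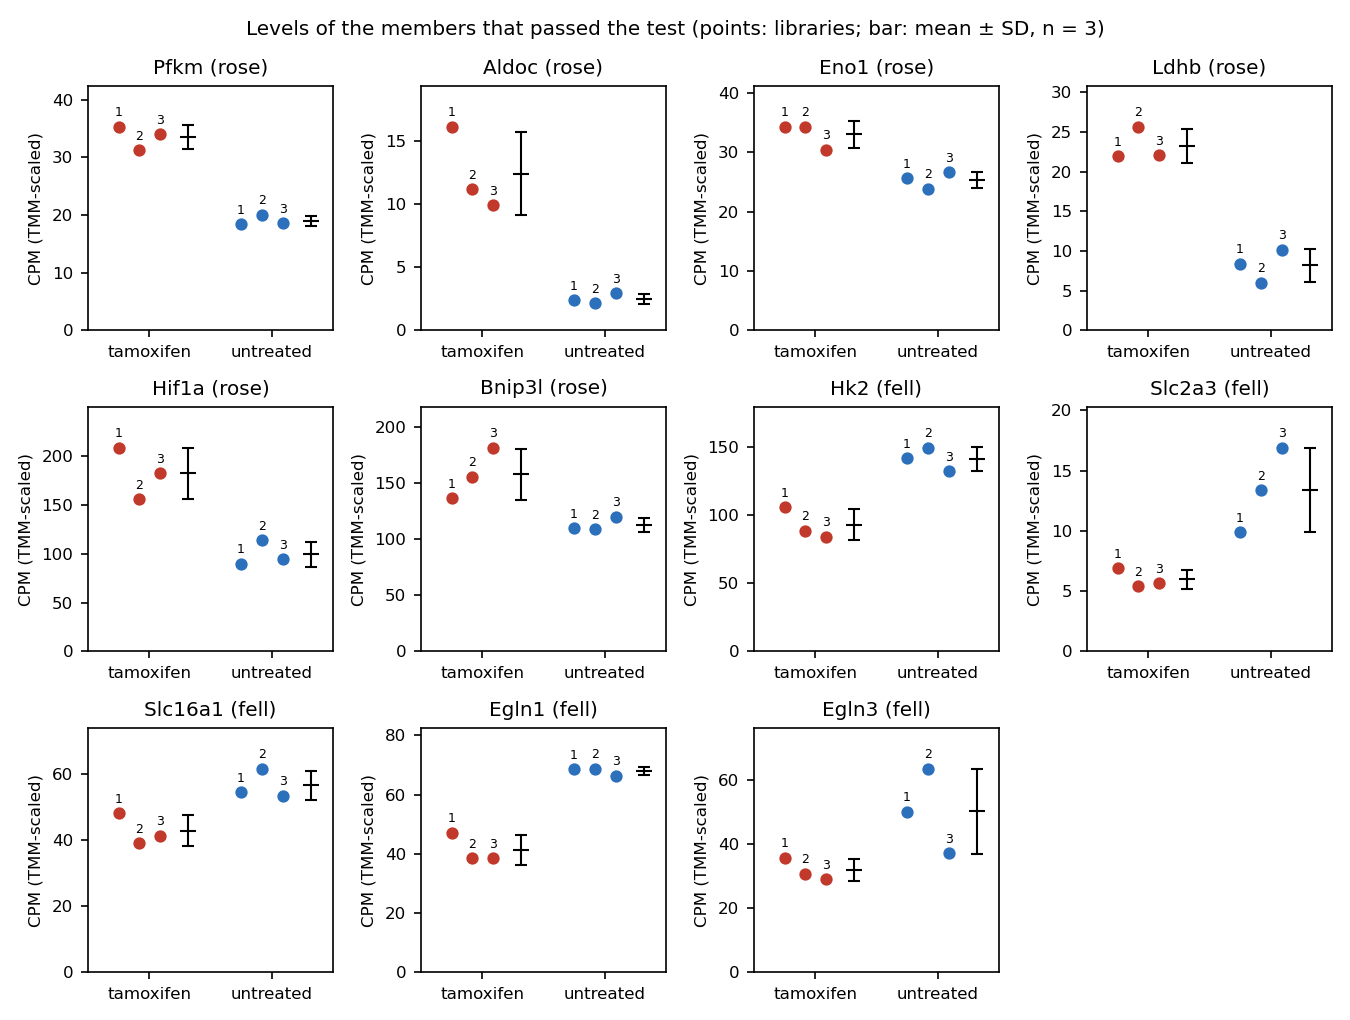
CPM (scaled with TMM) of the 11 members that passed the test, with tamoxifen libraries left of untreated libraries. Points are libraries marked with their replicate number, and the bar beside them is the mean ± SD (n = 3 each). No tamoxifen point lies within the range of the untreated points in any panel, and Egln3 and Slc2a3 have the widest untreated spread for their level.

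At the entry to glycolysis, among 3 hexokinase genes, whose products trap glucose in the cell, only Hk2 passed. Hk2 was at 106, 88.8 and 84.3 CPM in the tamoxifen libraries and at 142, 149.5 and 132 CPM in the untreated libraries. The groups were well apart, and Hk2 fell by 0.60 in log2 units (SE 0.11, edgeR adjusted p = 0.00816). Hk1 was at 205, 293 and 253 CPM in the tamoxifen libraries and at 195, 168 and 184 CPM in the untreated libraries. All tamoxifen libraries were higher, with replicate 1 closest to the untreated ones, and the log2 difference of 0.46 (SE 0.13) just missed the threshold (edgeR adjusted p = 0.0508). Hk1 cleared it when tamoxifen replicate 1 was left out (0.59, edgeR adjusted p = 0.00417) and under 7 other settings, DESeq2 among them (adjusted p = 0.00501). Hk3, the hexokinase gene typical of myeloid cells, had overlapping groups at 752 ± 77.9 CPM in tamoxifen and 861 ± 98.1 CPM in untreated libraries (SD, n = 3 each; log2 -0.19, edgeR adjusted p = 0.285).

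Phosphofructokinase commits sugar to glycolysis and has 3 subunit genes. Pfkm, the muscle subunit gene, was at 35.3, 31.3 and 34.1 CPM in the tamoxifen libraries and at 18.4, 20.05 and 18.6 CPM in the untreated libraries. Each group was tight and the groups far apart, a rise of 0.82 in log2 units (SE 0.10, edgeR adjusted p = 0.00153). The liver subunit gene Pfkl was at 227 ± 33.8 CPM in tamoxifen and 196 ± 14.02 CPM in untreated libraries, and the platelet subunit gene Pfkp at 106 ± 12.2 CPM in tamoxifen and 122 ± 6.90 CPM in untreated libraries (SD, n = 3 each). Both overlapped between groups and did not pass (log2 0.21 and -0.21, edgeR adjusted p = 0.269 and 0.227). Pfkp shares 17.4% of its exon bases with the opposite-strand gene Pitrm1, which was at a like level (92.8 CPM in tamoxifen and 98.6 CPM in untreated libraries on average). Depending on the counting rule, which is unknown, the counts of Pfkp may hold reads of Pitrm1 or lack reads that fit both. Gpi1, the glucose-6-phosphate isomerase gene, differed by -0.02 in log2 units (SE 0.10).

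In the middle of the pathway only Aldoc passed among 6 genes. This aldolase gene, best known from brain, was at 16.1, 11.2 and 9.91 CPM in the tamoxifen libraries and at 2.39, 2.16 and 2.97 CPM in the untreated libraries. All tamoxifen libraries were several-fold higher and replicate 1 was highest, with a rise of 2.30 in log2 units (SE 0.26, edgeR adjusted p = 0.000952), the largest among the 34 tested members. The other aldolase gene, Aldoa, was at 1526, 1134 and 1028 CPM in tamoxifen and at 1009, 932 and 958 CPM in untreated libraries. Tpi1, which encodes triosephosphate isomerase, was at 851, 558 and 515.5 CPM in tamoxifen and at 515.0, 490.4 and 484 CPM in untreated libraries. Pgk1, the phosphoglycerate kinase gene, was at 741, 561 and 576 CPM in tamoxifen and at 462, 506 and 489.7 CPM in untreated libraries. In Aldoa, Tpi1 and Pgk1 the groups did not overlap and tamoxifen replicate 1 was far above replicates 2 and 3. None passed (log2 0.35, 0.37 and 0.37, edgeR adjusted p = 0.131, 0.194 and 0.0675), although Pgk1 did with DESeq2 (adjusted p = 0.0151). Pgam1, the phosphoglycerate mutase gene, was at 848, 726 and 733 CPM in tamoxifen and at 945, 994 and 867 CPM in untreated libraries. It was lower in every tamoxifen library (log2 -0.28, edgeR adjusted p = 0.0751) and cleared the threshold when tamoxifen replicate 1 was left out (-0.35, adjusted p = 0.0149) or DESeq2 was used (adjusted p = 0.0349). Gapdh, the glyceraldehyde-3-phosphate dehydrogenase gene often used as a reference, overlapped between groups at 1412 ± 143 CPM in tamoxifen and 1298 ± 56.2 CPM in untreated libraries (SD, n = 3 each; log2 0.12, edgeR adjusted p = 0.417).

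At the end of the pathway, Ldhb, the heart-type lactate dehydrogenase gene, was at 22.0, 25.7 and 22.1 CPM in the tamoxifen libraries and at 8.40, 6.02 and 10.2 CPM in the untreated libraries. Every tamoxifen library was well above every untreated one, a rise of 1.502 in log2 units (SE 0.21, edgeR adjusted p = 0.00223). Ldha, the muscle-type gene, was at 1042, 822 and 827 CPM in tamoxifen and at 723, 696 and 694 CPM in untreated libraries. The groups did not overlap, and the log2 difference of 0.35 (SE 0.10) did not pass (edgeR adjusted p = 0.0558) except without tamoxifen replicate 1 (0.23, adjusted p = 0.0366), without scaling factors (adjusted p = 0.0491) and with DESeq2 (adjusted p = 0.0101). Eno1, the ubiquitous enolase gene, was at 34.3, 34.3 and 30.4 CPM in the tamoxifen libraries and at 25.7, 23.9 and 26.6 CPM in the untreated libraries. It rose by 0.38 in log2 units (SE 0.10, edgeR adjusted p = 0.0377), a call that was lost without tamoxifen replicate 2 or any 1 of the untreated replicates (log2 0.33 to 0.42, edgeR adjusted p 0.0774 to 0.141), without a filter (adjusted p = 0.0577) and with the replicate number as a block (adjusted p = 0.087). The neuronal enolase gene Eno2 was under 1 CPM throughout, and Pkm, the pyruvate kinase gene, overlapped between groups at 1722 ± 184 CPM in tamoxifen and 1925 ± 113 CPM in untreated libraries (SD, n = 3 each; log2 -0.16, edgeR adjusted p = 0.301).

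Of the transporters, those that passed fell. Slc2a3, which encodes the high-affinity glucose transporter GLUT3, was at 6.90, 5.43 and 5.66 CPM in the tamoxifen libraries and at 9.89, 13.4 and 16.9 CPM in the untreated libraries. It was lower in all tamoxifen libraries and fell by 1.16 in log2 units (SE 0.23, edgeR adjusted p = 0.0129), and narrowly missed the threshold without tamoxifen replicate 3 (-1.11, adjusted p = 0.0518). Slc16a1, the gene of the lactate transporter MCT1, was at 48.1, 39.0 and 41.3 CPM in the tamoxifen libraries and at 54.5, 61.5 and 53.4 CPM in the untreated libraries. The groups did not overlap and Slc16a1 fell by 0.40 in log2 units (SE 0.11, edgeR adjusted p = 0.0365). Leaving out any library other than tamoxifen replicate 1 ended that call (log2 -0.43 to -0.34, edgeR adjusted p 0.0733 to 0.13), as did upper quartile factors (adjusted p = 0.0637) and the replicate block (adjusted p = 0.0653). Slc2a1, which encodes GLUT1, was at 53.5, 36.1 and 32.3 CPM in tamoxifen and at 46.9, 39.8 and 44.4 CPM in untreated libraries. Tamoxifen replicate 1 was the highest of all 6 and replicates 2 and 3 the lowest, and the difference of -0.11 (edgeR adjusted p = 0.737) became -0.35 without replicate 1 (adjusted p = 0.0401). Slc16a3, the gene of the lactate exporter MCT4, overlapped between groups at 206, 166 and 131 CPM in tamoxifen and 138, 114 and 165 CPM in untreated libraries (log2 0.27, edgeR adjusted p = 0.356).

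Among the kinases that set flux, no member passed (edgeR). Pdk1 encodes a kinase that inhibits the mitochondrial enzyme pyruvate dehydrogenase. It was at 89.7, 66.9 and 76.4 CPM in tamoxifen and at 66.3, 54.7 and 60.9 CPM in untreated libraries. The groups came close without overlapping (log2 0.36, SE 0.13, edgeR adjusted p = 0.0946), and Pdk1 passed with DESeq2 (adjusted p = 0.0481). Its relative Pdk3 (log2 -0.17) and the genes of the bifunctional regulators of fructose-2,6-bisphosphate, Pfkfb3 (0.09) and Pfkfb4 (-0.34), had edgeR adjusted p-values of 0.278 to 0.556.

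**Figure D3:**
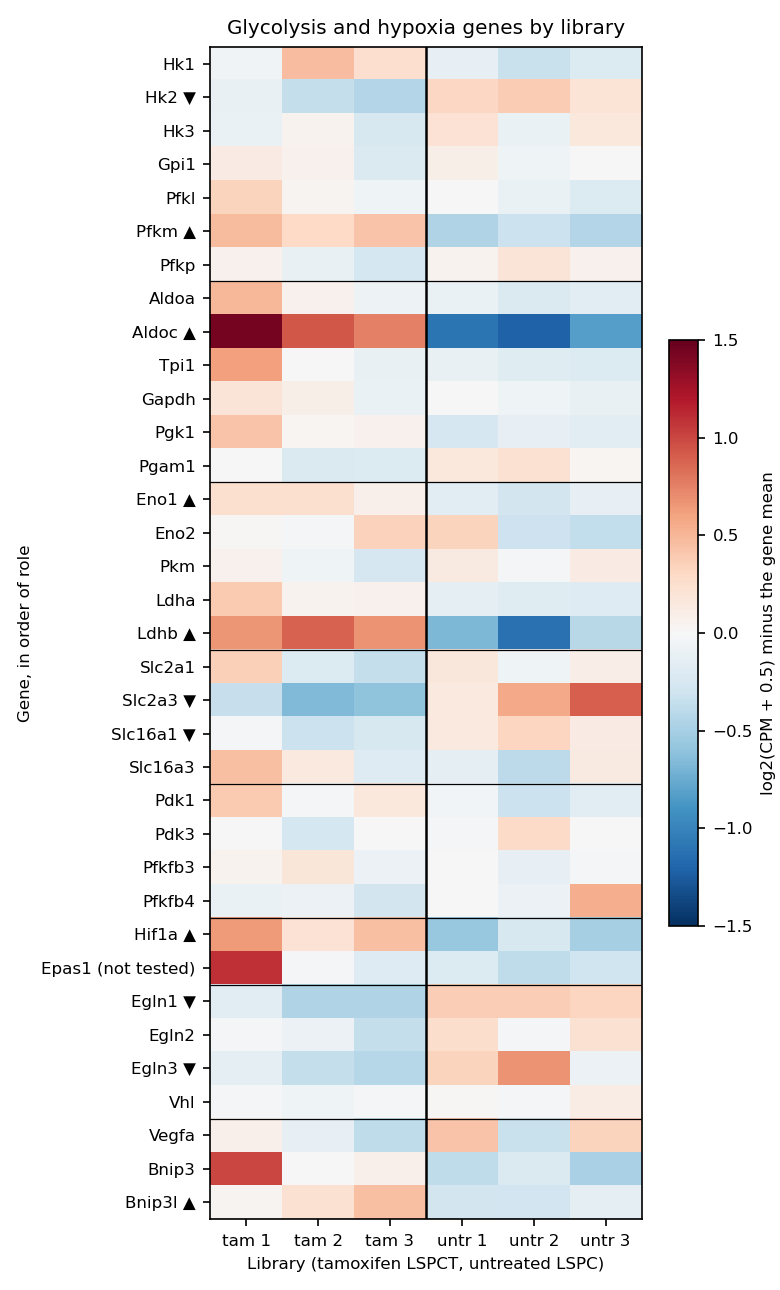
Level of each of the 35 members in each library, as log2(CPM + 0.5) minus the gene's mean over the 6 libraries, with tamoxifen (tam) libraries left of untreated (untr) libraries and genes down the page in order of role (▲ rose, ▼ fell). Aldoc and Ldhb have the strongest contrast between groups, and tamoxifen replicate 1 is the highest of all 6 libraries in 16 of the 35 genes.

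The spread among the tamoxifen libraries had a direction. Tamoxifen replicate 1 was the highest of its group for 27 of the 35 members (77.1%), beside 39.0% of all genes tested, and the lowest for 3. Against the mean log2 level in the other tamoxifen libraries, its median excess was 0.26 over the members, beside -0.0015 over all genes. The excess was 0.96 for Bnip3, 0.67 for Tpi1, 0.64 for Slc2a1, 0.50 for Aldoa and 0.59 for Aldoc. The 3 members lowest in replicate 1 were Hk1 (-0.41), Bnip3l (-0.30) and Ldhb (-0.11). Of the 7 members that were higher in all tamoxifen libraries without passing, 6 were highest in replicate 1. A single high library widens the spread and so favours that class, whose share over all genes was not computed, so this count adds no separate support. The CPM of the 35 members summed to 13210.3, 11567 and 10484 in the tamoxifen libraries and to 11638, 10872 and 11184 in the untreated libraries, so the groups overlapped in total. Replicate 1 was also the library with the most macrophage marker counts, whose part in these levels was not tested.

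Per kilobase of merged exon, on which levels of different genes can be compared, Gapdh was highest in both groups at 944 ± 95.8 CPM per kb in tamoxifen and 868 ± 37.6 CPM per kb in untreated libraries (SD, n = 3 each). Pkm (662 ± 70.8 CPM per kb in tamoxifen and 740.5 ± 43.5 in untreated libraries) and Gpi1 (636 ± 76.4 in tamoxifen and 645 ± 34.96 in untreated libraries) followed, and their order was within the spread in the tamoxifen libraries. Among the hexokinases Hk3 led at 224 CPM per kb in tamoxifen and 257 in untreated libraries, over Hk1 (51.6 in tamoxifen and 37.5 in untreated libraries) and Hk2 (16.6 in tamoxifen and 25.2 in untreated libraries). Among phosphofructokinases the order was Pfkl (60.8 in tamoxifen and 52.6 in untreated libraries), Pfkp (24.6 in tamoxifen and 28.4 in untreated libraries) and Pfkm (11.2 in tamoxifen and 6.34 in untreated libraries). The isozyme genes that rose stayed minor, with Aldoc at 4.17 CPM per kb in tamoxifen and 0.842 in untreated libraries, beside 479 in tamoxifen and 377 in untreated libraries for Aldoa. Ldhb was at 17.8 CPM per kb in tamoxifen and 6.29 in untreated libraries, beside 473 in tamoxifen and 372 in untreated libraries for Ldha. Hif1a stood at 33.4 CPM per kb in tamoxifen and 18.2 in untreated libraries, and Epas1 at 0.146 in tamoxifen and 0.0544 in untreated libraries. Among the hydroxylases Egln2 was highest (29.4 in tamoxifen and 36.5 in untreated libraries), and Egln1 (11.5 in tamoxifen and 18.9 in untreated libraries) and Egln3 (12.0 in tamoxifen and 18.9 in untreated libraries) lay within the spread of Egln3. Eno1 had only 12.95 CPM per kb in tamoxifen and 9.96 in untreated libraries, beside 433.5 in tamoxifen and 527 in untreated libraries for Pgam1, the step before it. Eno1 has a near-identical retrogene copy, Eno1b, which had 2.21 to 5.90 CPM in tamoxifen and 1.34 to 2.37 CPM in untreated libraries, so Eno1 counts are uncertain if reads that fit both were discarded or shared out. Other glycolytic genes, Gapdh, Ldha, Pgk1 and Pgam1 among them, also have processed pseudogenes.

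Ratios of the counts of 2 related genes within a library, to which scaling factors do not apply, were compared for 15 pairs. In 11 pairs the 3 tamoxifen and 3 untreated libraries did not overlap, each with the smallest p that 3 against 3 allows (exact permutation test, two-sided, p = 0.1, Benjamini-Hochberg adjusted p = 0.136), so none could pass at 0.05. The share of other gene pairs that do not overlap was not computed, so this count has no background beside it. The pairs are not independent, as Hk1, Pfkl and Egln1 recur, and several hold a member called above. The log2 ratio of Aldoc to Aldoa was -6.56, -6.66 and -6.69 in the tamoxifen libraries and -8.71, -8.74 and -8.32 in the untreated libraries. Unlike either gene alone, the ratio was nearly the same in tamoxifen replicate 1 as in replicates 2 and 3, and it was 3.87-fold higher in the tamoxifen group. The log2 ratio of Ldhb to Ldha was -5.56, -5.00 and -5.23 in the tamoxifen libraries and -6.42, -6.85 and -6.09 in the untreated libraries, which was 2.28-fold higher. The log2 ratio of Hk2 to Hk1 was -0.95, -1.72 and -1.58 in the tamoxifen libraries and -0.46, -0.16 and -0.48 in the untreated libraries. It was lower in every tamoxifen library, by a log2 difference of -1.05, with replicate 1 nearest to the untreated libraries. The lactate exporter gene Slc16a3 gained on Slc16a1 (log2 difference 0.67) and Slc2a3 lost on Slc2a1 (-0.99). Egln3 kept its ratio to Egln1 within the spread (log2 difference 0.09, groups overlapping, exact permutation p = 0.7), whereas Egln2 to Egln1 was higher with tamoxifen (0.40, groups not overlapping).

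**Figure D4:**
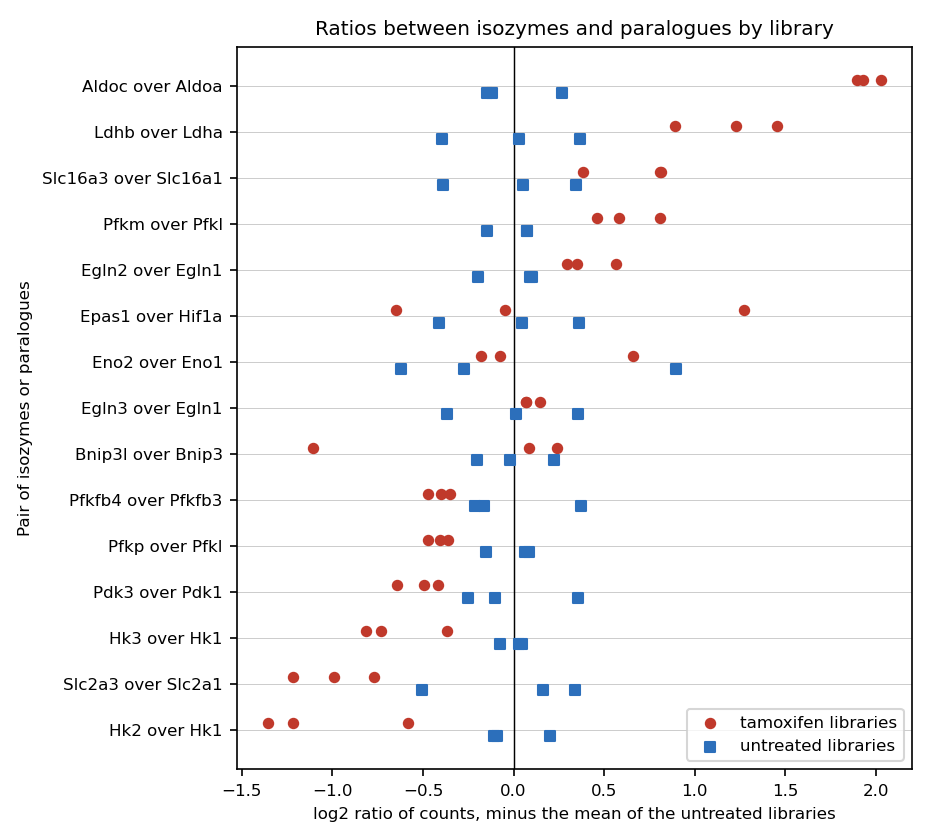
Log2 ratio of counts for 15 pairs of isozymes or paralogues in each library, as the distance from the mean of the untreated libraries (red circles, tamoxifen libraries; blue squares, untreated libraries). The groups do not overlap in 11 pairs (share over other gene pairs not computed), with Aldoc over Aldoa farthest to the right (mean difference 1.95) and Hk2 over Hk1 farthest to the left (-1.05).

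Neighbouring pathways were described from 5 lists of 79 genes, of which 68 were tested, 3 rose and 8 fell (16.2%, beside 17.2% of all genes), with a median log2 fold change of -0.04. In the pentose phosphate pathway, which branches off glucose-6-phosphate, 1 of 8 genes rose and 1 fell. Rpia, the ribose-5-phosphate isomerase gene, was at 229, 287 and 265 CPM in the tamoxifen libraries and at 111.1, 111.0 and 113 CPM in the untreated libraries. It more than doubled in every tamoxifen library (log2 1.22, SE 0.10, edgeR adjusted p = 0.000187). Pgd, the gene of the enzyme that makes NADPH from 6-phosphogluconate, was at 678, 610.2 and 576 CPM in the tamoxifen libraries and at 1031, 939 and 982 CPM in the untreated libraries. It fell in every tamoxifen library (log2 -0.66, SE 0.09, edgeR adjusted p = 0.00184). Both calls were kept under all 15 alternatives.

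Of 12 tested genes for the entry of pyruvate into mitochondria and its use there, none rose and 3 fell. These were Mpc2, a subunit gene of the mitochondrial pyruvate carrier (29.9 ± 2.46 CPM in tamoxifen and 39.5 ± 1.51 CPM in untreated libraries), Pdha1, a subunit gene of pyruvate dehydrogenase (127 ± 6.99 CPM in tamoxifen and 161 ± 7.59 CPM in untreated libraries), and Pdp2, the gene of a phosphatase that activates that enzyme (10.4 ± 1.53 CPM in tamoxifen and 17.5 ± 1.67 CPM in untreated libraries; SD, n = 3 each). The log2 changes were -0.40, -0.34 and -0.75 (edgeR adjusted p = 0.0251, 0.0297 and 0.0187). All 3 calls depended on single libraries. Without any 1 library other than tamoxifen replicate 1, Mpc2 and Pdha1 had edgeR adjusted p-values of 0.056 to 0.128, and Pdp2 missed the threshold without tamoxifen replicate 2 or untreated replicate 1 or 3 (adjusted p 0.0543 to 0.0901). Pdha1 also missed it with upper quartile factors and with the replicate block (adjusted p = 0.0524 and 0.0686).

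Among 13 tested other glycolytic isozymes and regulators 1 rose and 1 fell. Slc2a6, a glucose transporter family gene, was at 26.5, 50.4 and 51.2 CPM in the tamoxifen libraries and at 12.8, 10.2 and 22.4 CPM in the untreated libraries. Here tamoxifen replicate 1 was the lowest of its group and close to untreated replicate 3 (log2 1.49, SE 0.34, edgeR adjusted p = 0.0197). Without tamoxifen replicate 2 or 3 or untreated replicate 1 or 2 Slc2a6 did not pass (log2 1.27 to 1.39, edgeR adjusted p 0.064 to 0.0862). Slc2a9, a urate and sugar transporter gene, was at 20.9, 18.8 and 19.2 CPM in tamoxifen and at 28.4, 28.7 and 27.6 CPM in untreated libraries (log2 -0.53, SE 0.10, edgeR adjusted p = 0.0114, but 0.0647 without untreated replicate 1).

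Of 26 tested genes of the wider hypoxia response 1 rose and 3 fell. Car12, the gene of carbonic anhydrase XII, was at 10.5, 8.31 and 9.03 CPM in the tamoxifen libraries and at 32.1, 34.5 and 29.3 CPM in the untreated libraries. It fell by 1.78 in log2 units (SE 0.14, edgeR adjusted p = 0.000147) and kept its call under all 15 alternatives, as did Stc2. Stc2, the stanniocalcin 2 gene, had 2, 2 and 2 counts in the tamoxifen libraries and 37, 149 and 61 counts in the untreated libraries, and its fitted change of -5.13 (edgeR adjusted p = 0.00185) rests on tamoxifen counts under the floor of 3 per library. The histone demethylase gene Kdm3a fell (log2 -0.38, edgeR adjusted p = 0.0472) and the collagen lysyl hydroxylase gene Plod2 rose (1.83, adjusted p = 0.0405), at 1.21 ± 0.550 CPM in tamoxifen and 0.334 ± 0.0641 CPM in untreated libraries (SD, n = 3 each). Leaving out any library other than tamoxifen replicate 1 ended the call of Kdm3a (log2 -0.42 to -0.32, edgeR adjusted p 0.0753 to 0.17), and leaving out any other than tamoxifen replicate 2 ended that of Plod2 (log2 1.48 to 2.01, adjusted p 0.0726 to 0.154).

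In some genes of that list tamoxifen replicate 1 alone stood high. Ddit4, which encodes the stress-induced mTORC1 inhibitor REDD1, was at 81.4, 18.3 and 16.1 CPM in tamoxifen and at 16.0, 17.1 and 39.1 CPM in untreated libraries. P4ha1, a collagen prolyl hydroxylase gene, was at 69.8, 33.8 and 34.8 CPM in tamoxifen and at 49.6, 49.1 and 49.0 CPM in untreated libraries. Ero1l, an oxidase gene of the endoplasmic reticulum, was at 369, 212 and 241 CPM in tamoxifen and at 246, 269.9 and 234 CPM in untreated libraries. In P4ha1 the other 2 tamoxifen libraries lay below all untreated ones, and none of these 3 genes, chosen after their values were seen, passed (edgeR adjusted p = 0.515, 0.836 and 0.681). Other genes of the list had tamoxifen replicate 1 as the lowest of its group. Among them, tamoxifen libraries were at 27.7, 48.5 and 43.0 CPM for Ndrg1, 126, 151 and 141 CPM for Mxi1, and 37.5, 44.5 and 49.0 CPM for Kdm4c. How many genes of the list went each way was not counted.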

How the data were processed

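The authors deposited raw counts, in whole numbers for each gene symbol, with 1 file a library. The tools named per the submitters' processing notes are TopHat2 2.1.0, featureCounts, FastQC and DESeq2, and the build is mm9, without role or order. Annotation, strand setting and treatment of multi-mapped reads were not stated in the sources used here.

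From these counts, edgeR 4.0.16 under R 4.3.3 gave TMM scaling factors, and filterByExpr (minimum count 10) left 12729 of 24015 genes. Groups were compared over all genes tested with the quasi-likelihood F test, two-sided, with Benjamini-Hochberg adjustment and a threshold of 0.05. Each SE was taken as the size of the log2 fold change divided by the root of F. CPM are TMM-scaled. Isozyme ratios are log2 ratios of counts plus 0.5, compared with exact permutation tests over libraries (scipy 1.17.1).

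The members and the lists of other pathway genes and markers were chosen with earlier results of these data known. All members, the passing genes of other lists, Map3k14 and summed markers were to be named. Exon lengths and overlaps came from GENCODE M21 (GRCm38, matched by symbol, 35 of 35 members), not the build of the counts. Promoters came from RefSeq GRCm38.p6.

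Alternatives were RLE, upper quartile or no scaling factors, no filter, a stricter one (3 or more libraries over 1 CPM), limma voom (limma 3.58.1), DESeq2 1.42.0, the replicate number as a block, each library left out, and, added after seeing the data, tamoxifen replicate 1 and untreated replicate 3 left out together. On simulated counts for this comparison (12576 genes, 66 of them changed at each fold) the test recovered 27.3% of genes changed 1.5-fold, 74.2% changed 2-fold and 86.4% changed 4-fold, and called 8 unchanged genes. The share of changed genes was far below the 17.2% called in the data, so these recovery rates need not carry over.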

Additional observations from a re-analysis of the deposited data

How the results depend on the processing

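With each library left out in turn, 4 to 9 members rose and 2 to 8 fell, against 6 and 5 with all libraries, and of the other pathway genes 1 to 5 rose and 3 to 14 fell, against 3 and 8. Calls over all genes shifted too in those fits, with 586 to 1657 that rose and 443 to 1592 that fell, against 1140 and 1049. With DESeq2, 11 members and 6 other pathway genes rose, beside 1450 of all 12729 genes. With upper quartile factors 3 members fell, beside 903 of all 12729 genes. With tamoxifen replicate 1 and untreated replicate 3 both left out, a setting chosen after seeing the data, 5 other pathway genes rose and 14 fell, and 7 members rose and 6 fell. Of all 12825 genes tested in that fit, 1818 rose and 1558 fell. The cause of these shifts was not tested. No member changed direction past the threshold under any setting, and the median log2 fold change of all genes, -0.0025 with TMM, lay farthest from it among the scalings with upper quartile factors, at 0.0304. The replicate numbers of the titles were not shown to pair the libraries: deviations of same-numbered libraries correlated at 0.12, -0.11 and 0.11 across genes. With the number as a block, 5 members rose, 4 fell and 1792 genes passed in all, against 2189 without it; the calls of Eno1, Slc16a1, Pdha1, Kdm3a and Plod2 were lost. The isozyme ratios of the 11 pairs whose groups did not overlap kept their direction and moved by less than 1 SD with a pseudocount of 5 or without any 1 library, whereas the sign varied in the other 4 pairs. Eno2 and Plod2 were too low for the stricter filter and have no value there. With 3 libraries a group, changes of 1.5-fold were often missed on simulated counts, and a member that did not pass is not shown to be unchanged.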
